A study of Mus musculus with 6 samples.

Results

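Solute carriers are membrane proteins that move amino acids, sugars, metal ions, nucleotides, vitamins and other small molecules into, out of and between the compartments of a cell. They were taken here as the probes whose gene symbol starts with Slc and a digit, in a platform annotation that covered only probes of the authors' table of 19293, so carrier probes outside that table were not counted. Some carriers of arginine and of iron, the main glucose carriers and the carnitine carrier were left out by the same rule. The genes it left out were *Slc7a1*, *Slc7a2*, *Slc11a1*, *Slc11a2*, *Slc40a1*, *Slc2a1*, *Slc2a3* and *Slc25a20*. Of 247 such probes for 179 genes, 204 probes for 149 genes passed the filter on low signals, a detection p-value under 0.05 on at least 3 of 6 arrays. These 204 probes stand among 16071 that passed it, out of 45281 on the array.

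Dendritic cells were raised from the bone marrow of 3 C57BL/6 male mice (BMDCs) over 10 days in GM-CSF at 20 ng/ml, the growth factor that drives such cultures. For the last 6 h GM-CSF was lowered to 5 ng/ml, and recombinant IL-4 was added at 20 ng/ml or left out, which gave 3 IL-4 arrays and 3 control arrays of Illumina MouseWG-6 BeadChips. All 6 arrays therefore carry cells in GM-CSF, marrow was kept apart by mouse, and the protocol names no sort before RNA extraction and no age of the mice. Of 10 dendritic cell markers 9 passed the filter, among them *Cd74*, *H2-Aa*, *Zbtb46* and *Itgax*, while *Flt3* had no annotated probe here. Of these *Irf4* and *Batf3*, transcription factors of such cells, were called higher with IL-4 in a fit blocked by replicate number. That fit called 1.44% of all probes higher. The log2 fold changes of *Irf4* and *Batf3* were 1.08 and 0.91 (adjusted p = 0.0101 and 0.0104 blocked, 0.175 and 0.141 unpaired). The other tested markers ran from -0.20 (*Ciita*) to 0.10 (*H2-Aa*) and were not called, and the median of the list was 0.04.

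Immature dendritic cells sample their surroundings through endosomes and lysosomes, and their carriers supply the material for that traffic, for energy and for antigen handling. Zinc is held by ZnT carriers (family Slc30), which move it out of the cytosol, and ZIP carriers (family Slc39), which move it in. Copper enters through family Slc31, choline through family Slc44 and nucleosides through family Slc29. Family Slc25 spans the inner mitochondrial membrane and family Slc35 feeds nucleotide sugars to the Golgi apparatus and the endoplasmic reticulum.

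Levels below are log2 bead signals after background correction and quantile normalization, and each fold change is the mean of the IL-4 arrays minus that of the control arrays on that scale. A level compares the arrays for 1 probe and says nothing of 1 gene against another. Median bead signals before normalization were 97.0 to 121 on the IL-4 arrays and 83.8 to 118 on the control arrays, with 15279 to 17185 and 14934 to 16542 probes detected. In cultures of mixed cells, fewer cells of a kind and less RNA per cell cannot be told apart. P-values are from limma, two-sided, with Benjamini-Hochberg adjustment over all 16071 probes.

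In the unpaired fit no carrier probe passed an adjusted p of 0.05 in either direction, whereas 0.112% of all probes were called higher and 0.0% lower. Before adjustment, at 0.05, 13 of the 204 carrier probes were higher (6.37%, against 3.9% of all probes) and 12 were lower (5.88%, against 3.35%). A blocked fit, which takes the replicate number into account and compares arrays of the same number, called 3 carrier probes higher and 1 lower. These were 1.47% and 0.49% of the carriers, against 1.44% and 0.834% of all probes called in each direction by the blocked fit. The 3 that rose were the metal carriers *Slc30a4*, *Slc39a6* and *Slc31a2*, and the 1 that fell was the choline carrier *Slc44a1*. With median scaling in place of quantile normalization, or with the authors' normalized values, none of the 4 passed in the blocked fit. The shares called were close to those of the array as a whole. Before adjustment the blocked fit had 23 higher and 18 lower at 0.05 (11.3% and 8.82%, against 6.68% and 6.69% of all probes). In 45 carrier probes the IL-4 array was the higher one in each of the 3 replicates, and in 40 it was the lower one (22.1% and 19.6%, against 16.3% and 17.4%).

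The windows around the start sites of the called genes are shown so that the letters around their starts can be read side by side. They were taken from RefSeq on build GRCm38.p6 and hold 250 bases before and 50 bases after the start, 5′ to 3′ on the strand of the gene. *Slc39a6* was left out of this step, so no window is given for it and the letters around its start were not examined. For *Slc44a1* the first of its 2 listed windows is given. Capitals mark matches to the core of the metal response element (TGCACNC or TGCGCNC, on either strand), the site of the zinc-sensing factor MTF-1. The lines give *Slc30a4* at chr2:122702614-122702913 (minus strand), *Slc31a2* at chr4:62286179-62286478 (plus strand) and *Slc44a1* at chr4:53440163-53440462 (plus strand).
Slc30a4: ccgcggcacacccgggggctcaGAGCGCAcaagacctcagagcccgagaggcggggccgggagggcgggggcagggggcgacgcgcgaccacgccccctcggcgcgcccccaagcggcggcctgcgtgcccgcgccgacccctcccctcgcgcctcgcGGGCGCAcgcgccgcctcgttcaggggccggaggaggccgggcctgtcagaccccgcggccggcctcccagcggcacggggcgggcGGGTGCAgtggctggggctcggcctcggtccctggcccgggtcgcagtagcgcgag
Slc31a2: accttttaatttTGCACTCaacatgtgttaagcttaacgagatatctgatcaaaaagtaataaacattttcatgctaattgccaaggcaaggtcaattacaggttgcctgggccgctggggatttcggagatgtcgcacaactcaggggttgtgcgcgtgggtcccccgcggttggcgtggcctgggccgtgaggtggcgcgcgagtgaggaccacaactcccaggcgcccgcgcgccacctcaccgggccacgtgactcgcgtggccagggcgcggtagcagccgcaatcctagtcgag
Slc44a1: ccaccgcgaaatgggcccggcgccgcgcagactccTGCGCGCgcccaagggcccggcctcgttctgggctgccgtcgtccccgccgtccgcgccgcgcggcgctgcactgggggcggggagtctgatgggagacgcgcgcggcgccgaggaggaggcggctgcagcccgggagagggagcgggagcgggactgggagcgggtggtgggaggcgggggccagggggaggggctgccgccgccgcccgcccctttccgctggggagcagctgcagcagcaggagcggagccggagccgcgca
The *Slc30a4* window held 3 matches, all on the opposite strand, and the *Slc31a2* and *Slc44a1* windows held 1 each on the strand of the gene. Such a match stood in 25.7% of the 32851 windows of this length in the table, so its presence in these windows is a description of their letters. The sites that STAT factors bind, TTCNNNNGAA (6.95% of windows, the spacing known for the IL-4-activated factor STAT6) and TTCNNNGAA (8.3% of windows), were searched on both strands. Neither spelling was in any of the 3 windows.

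*Slc30a4* encodes ZnT4, a zinc exporter of intracellular vesicles that is known for zinc secretion into milk. In the order of replicates 1, 2 and 3, which holds throughout, its level was 5.94, 5.70 and 5.83 on IL-4 arrays, against 5.05, 4.69 and 4.63 on the control arrays. The IL-4 arrays all lay above the control arrays, and the probe was detected on all IL-4 arrays and on 2 control arrays. The log2 fold change was 1.03 (SE 0.18), a 2.05-fold higher signal, with an adjusted p of 0.108 unpaired and 0.00412 with the replicate block. Among the carriers called by the blocked fit it was the only one past 2-fold (0.49%, against 0.672% of all probes), and the difference was 0.88, 1.01 and 1.21 within replicates. Without background correction its fold change was 0.33 and did not pass (adjusted p = 0.0748 with the block).

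*Slc39a6* encodes ZIP6, a zinc importer of the plasma membrane. It read 8.75, 8.85 and 8.62 on the IL-4 arrays, against 7.83, 8.08 and 7.75 on the control arrays. The groups were apart by more than the spread within either of them, and all 6 arrays detected the probe. This gave a log2 fold change of 0.85 (SE 0.17), with an adjusted p of 0.141 unpaired and 0.0103 with the block. Within replicates the difference was between 0.77 and 0.92, the narrowest range of the 4 called probes.

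*Slc31a2* encodes CTR2, a copper carrier of endosomes and lysosomes. Its signal was 7.47, 7.13 and 6.95 on the IL-4 arrays and 6.31, 6.26 and 6.47 on the control arrays. The groups did not overlap, and the gap was smallest in replicate 3. It was higher by 0.84 on the log2 scale (SE 0.18), with an adjusted p of 0.178 unpaired and 0.022 with the block. Without replicate 1 it no longer passed (0.68, adjusted p = 0.0625). Without background correction its fold change was 0.46, and the blocked fit did not call it. Its relative *Slc31a1*, the copper importer CTR1 of the plasma membrane, did not pass in either fit. *Slc31a1* read 7.38, 6.53 and 7.70 on the IL-4 arrays and 7.16, 6.80 and 7.67 on the control arrays, a log2 fold change of -0.01 (SE 0.32).

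*Slc44a1* encodes a choline carrier of the plasma membrane and mitochondria, and choline is the starting point of phosphatidylcholine, the main membrane lipid. It read 6.73, 6.23 and 7.03 on the IL-4 arrays, against 7.81, 7.09 and 7.61 on the control arrays. Both groups had their lowest value in replicate 2, so the groups nearly met while each replicate differed the same way. The log2 fold change was -0.84 (SE 0.25), with an adjusted p of 0.427 unpaired and 0.0153 with the block. Within replicates the difference was -1.07, -0.87 and -0.58. The 3 probes of *Slc44a2*, a gene of the same family, ran from -0.18 to 0.03 and none passed. A further *Slc44a1* probe was detected on 0 of 6 arrays.

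**Figure D1:**
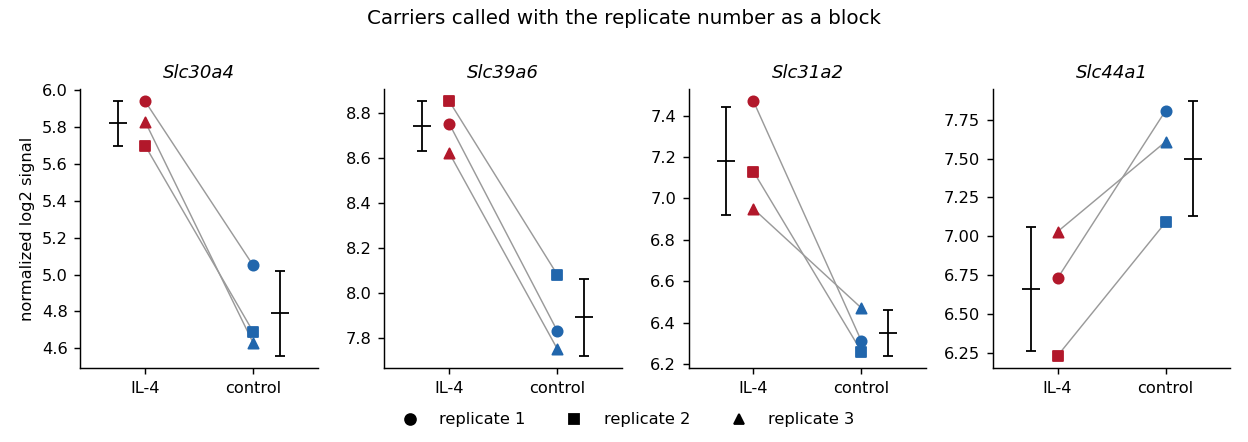
Normalized log2 signal of the 4 carrier probes called with the replicate block, with IL-4 arrays at the left and control arrays at the right of each panel. Marker shapes give the replicate number, grey lines join arrays of the same number, and the bars beside the points are the mean and SD (n = 3); all 3 lines run the same way in every panel, and the vertical axes differ between panels and do not start at 0.

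Metal carriers were the class with the called rises, 3 of 23 probes for 17 genes, where the same fit called 1.44% of all probes higher. The class median was 0.07, against -0.003 over all tested probes. Family Slc30 had 8 probes for 6 genes, with 4 above and 4 below zero, and *Slc30a4* alone was called. *Slc30a9* was detected on no IL-4 array and on all 3 control arrays, so it passed the filter through the control arrays alone. The gap between its groups is therefore in part set by the filter. Its signal of 4.45, 4.39 and 4.45 on the IL-4 arrays, against 4.85, 4.81 and 4.91 on the control arrays, sets the control level at least 1.12-fold higher, with an adjusted p of 0.214 with the block. That bound puts the mean of the control arrays over the higher, on each IL-4 array, of the lowest detected signal and the signal of the probe.

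Family Slc39 had 10 probes for 7 genes, 7 with a positive and 3 with a negative fold change. Besides *Slc39a6*, *Slc39a1* (ZIP1, a zinc importer of the plasma membrane) gave 0.59 and the brighter of 2 probes of *Slc39a13* (ZIP13, a zinc carrier of the secretory pathway) gave 0.53, with adjusted p of 0.177 and 0.163 with the block. *Slc39a1* read 6.85, 6.02 and 6.47 on the IL-4 arrays and 6.24, 5.97 and 5.36 on the control arrays. Its groups overlapped, and its difference within replicate 2 was 0.05 against 0.61 and 1.11 in the others. Without the replicate 2 arrays, the blocked fit called *Slc39a1* (0.86, adjusted p = 0.0181) and *Slc39a13* (0.71, adjusted p = 0.036). A blocked fit that leaves out 1 replicate rests on 2 pairs of arrays and 1 residual degree of freedom, and neither gene was called without replicate 1 or without replicate 3. The lowest value of the family was that of *Slc39a4*, the zinc importer of gut cells, at -0.40 (adjusted p = 0.339 with the block).

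The other metal carriers did not pass in either fit. The 3 probes of *Slc39a7* (ZIP7, which releases zinc from the endoplasmic reticulum) had fold changes from -0.18 to 0.07. The paired probes of *Slc30a5* and *Slc30a7*, zinc carriers of the early secretory pathway, ran from 0.08 to 0.14 and from -0.17 to -0.07. The magnesium carrier *Slc41a2* gave 0.41 (adjusted p = 0.257 with the block), and the 2 probes of *Slc41a3* gave -0.21 and -0.06.

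**Figure D2:**
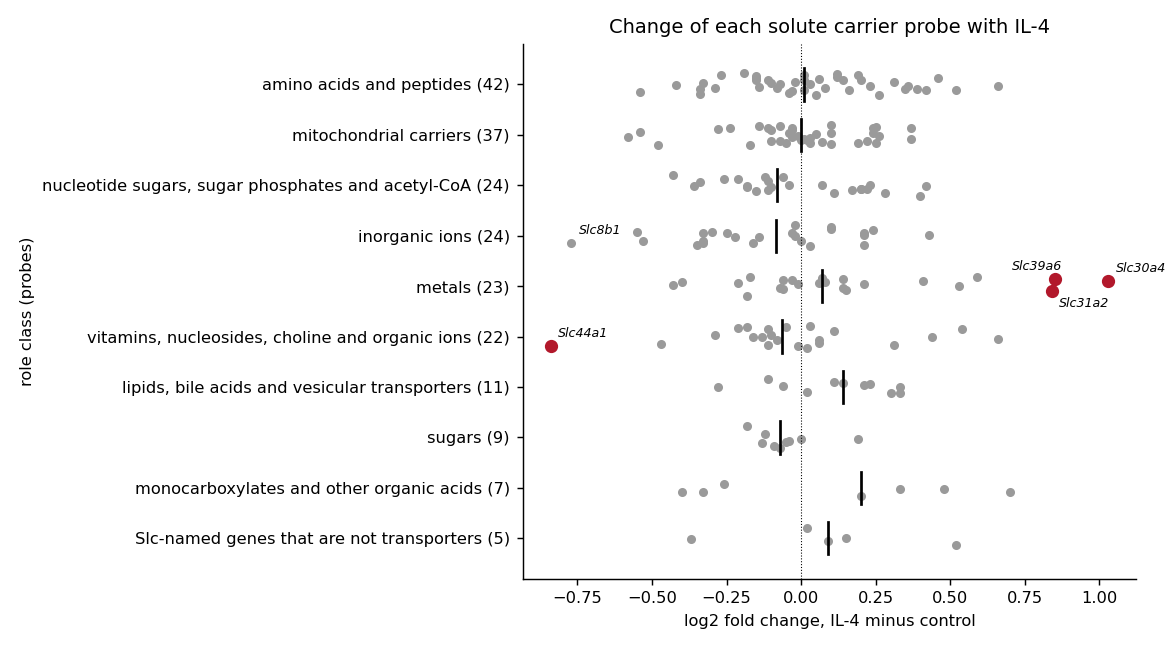
Log2 fold change (IL-4 minus control) of each of the 204 carrier probes, in rows by the role of its family, with the number of probes in brackets. Black bars are class medians, which lie between -0.09 and 0.20, and red points are the 4 probes called with the replicate block, of which 3 are metal carriers.

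Class medians ranged from -0.085 for carriers of inorganic ions to 0.203 for carriers of monocarboxylates and other organic acids, each within the spread of its members. Over all carriers the median was -0.008 and fold changes ran from -0.84 to 1.03, whereas over all tested probes they ran from -1.59 to 5.34. Of the carriers 18 (8.82%) had a log2 fold change over 0.5 in size, against 6.04% of all probes. For 19 carrier probes all IL-4 arrays lay above all control arrays (9.31%, against 6.09% of all probes), and for 15 all lay below (7.35%, against 6.0%).

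Among carriers of nucleosides and vitamins, *Slc29a1* (ENT1, the equilibrative nucleoside carrier of the plasma membrane) had 2 probes that did not overlap between groups. The brighter probe read 7.66, 7.51 and 7.29 on the IL-4 arrays and 6.95, 6.94 and 6.94 on the control arrays, and the dimmer probe 5.22, 5.28 and 5.55 against 4.39, 4.84 and 4.82. Both probes were higher in each replicate, by 0.54 and 0.66 (SE 0.16 and 0.19). Their adjusted p were 0.419 and 0.358 unpaired and 0.116 and 0.0507 with the block, so neither passed. Without replicate 2 the dimmer probe passed in the blocked fit (0.78, adjusted p = 0.0207), but not without replicate 1 or without replicate 3. *Slc29a3* (ENT3, the lysosomal nucleoside carrier) gave 0.06 (SE 0.23).

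Of the other carriers in that class, *Slc48a1* (HRG1, which moves heme out of lysosomes) gave -0.47 and *Slc19a1*, the reduced folate carrier, gave 0.44. Their adjusted p were 0.195 and 0.282 with the block. *Slc19a1* read 6.23, 5.97 and 6.41 on the IL-4 arrays and 5.90, 5.83 and 5.57 on the control arrays, without overlap. The ascorbate carrier *Slc23a2* gave -0.05 and the riboflavin carrier *Slc52a3* gave 0.06 (adjusted p = 0.992 and 0.985 unpaired).

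Carriers of inorganic ions had 24 probes for 17 genes, and none passed in either fit. The largest difference was in *Slc8b1* (NCLX, the sodium-calcium exchanger of the inner mitochondrial membrane). It read 7.63, 8.34 and 7.88 on the IL-4 arrays, against 9.03, 8.51 and 8.61 on the control arrays. The groups did not overlap, but the difference was -1.40 and -0.73 within replicates 1 and 3 and -0.18 within replicate 2. Its log2 fold change of -0.77 (SE 0.22) had an adjusted p of 0.402 unpaired and 0.091 with the block. Without replicate 2 the blocked fit called it, at -1.06 (adjusted p = 0.00781), but it was not called without replicate 1 or without replicate 3.

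*Slc8a1* (NCX1, the sodium-calcium exchanger of the plasma membrane) had 2 probes, with fold changes of -0.53 and -0.33. The dimmer one was detected on no IL-4 array and on all 3 control arrays, at 4.63, 4.75 and 4.44 against 5.37, 5.19 and 4.84. That sets the control level at least 1.36-fold higher (adjusted p = 0.129 with the block). This probe passed the filter through the control arrays alone, so the gap between its groups is in part set by the filter. A further *Slc8a1* probe was under the filter.

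Mitochondrial carriers were the second largest class, with 37 probes for 28 genes and a median of 0.0, and none passed in either fit. *Slc25a45*, a carrier of the family with a little-studied substrate, read 8.78, 9.01 and 9.03 on the IL-4 arrays and 9.38, 9.49 and 9.59 on the control arrays. The groups did not overlap and the difference was -0.47 to -0.60 in every replicate. Its log2 fold change of -0.54 (SE 0.16) had an adjusted p of 0.408 unpaired and 0.103 with the block. A blocked fit whose prior variance follows signal intensity called 4 carriers higher and 3 lower (1.96% and 1.47%, against 1.9% and 1.31% of all probes). Beside the 4 probes of the first blocked fit, these were *Slc25a45*, *Slc8b1* and the dimmer *Slc29a1* probe (adjusted p = 0.0303, 0.0321 and 0.0496). Blocked fits with an offset of 50 in the background correction, or without that correction, called *Slc25a45* too (adjusted p = 0.0269 and 0.0328). With the authors' values it was not called (adjusted p = 0.118 with the block).

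*Slc25a28* (mitoferrin 2, an iron importer of mitochondria) read 7.70, 8.26 and 8.03 on the IL-4 arrays, against 8.63, 8.49 and 8.61 on the control arrays. The groups did not overlap, and the log2 fold change was -0.58 (SE 0.18), with an adjusted p of 0.479 unpaired and 0.129 with the block. Mitoferrin 1, *Slc25a37*, read 5.83, 5.96 and 5.77 on the IL-4 arrays and 6.58, 5.77 and 6.66 on the control arrays. Its groups overlapped through replicate 2, and the fold change was -0.48 (adjusted p = 0.323 with the block). Without replicate 2 the blocked fit called both, at -0.75 (adjusted p = 0.0288) and -0.82 (adjusted p = 0.0165). Neither was called without replicate 1 or without replicate 3.

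Carriers that serve oxidative phosphorylation did not pass either. The ADP/ATP carrier *Slc25a5* averaged 12.43 ± 0.39 on the IL-4 arrays and 12.19 ± 0.13 on the control arrays (SD, n = 3 each). Its log2 fold change was 0.24 (SE 0.21). For the phosphate carrier *Slc25a3* 1 probe read 11.12, 10.93 and 11.12 on the IL-4 arrays against 10.65, 10.66 and 10.74 on the control arrays (0.37, adjusted p = 0.296 with the block). Its second probe gave 0.02 (SE 0.18), of the same sign and not called. The citrate carrier *Slc25a1* had 2 probes at 0.37 and 0.07, and the aspartate-glutamate carrier *Slc25a12* gave 0.10 and 0.03.

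Amino acid and peptide carriers were the largest class, with 42 probes for 29 genes, a median of 0.013 and no call in either fit. The smallest blocked p of the class was that of *Slc7a8* (LAT2, a carrier of large neutral amino acids). It read 6.78, 5.88 and 6.69 on the IL-4 arrays and 7.29, 6.19 and 7.49 on the control arrays. The groups overlapped because both replicate 2 arrays were low, while the difference was -0.51, -0.31 and -0.80 within replicates. Its log2 fold change of -0.54 (SE 0.36) had an adjusted p of 0.870 unpaired and 0.131 with the block. A second *Slc7a8* probe, detected on 2 IL-4 arrays and 2 control arrays, gave -0.29 (adjusted p = 0.499 with the block).

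The 2 probes of *Slc38a2* (SNAT2, the neutral amino acid carrier that cells raise when amino acids run low) did not overlap between groups. The first read 8.00, 8.40 and 8.55 on the IL-4 arrays against 8.64, 8.76 and 8.82 on the control arrays, and the second 7.49, 7.40 and 7.36 against 7.88, 7.75 and 7.60. Their log2 fold changes were -0.42 and -0.33 (SE 0.18 and 0.16), with adjusted p of 0.241 and 0.372 with the block. *Slc3a2*, the heavy chain that carries LAT1 and xCT to the surface, gave -0.34 (SE 0.22), with overlapping groups. *Slc1a4* (ASCT1, a serine and alanine carrier) gave 0.66, at 6.92, 6.50 and 6.99 on the IL-4 arrays and 6.38, 6.35 and 5.71 on the control arrays. It did not pass with all arrays (adjusted p = 0.142 with the block), and passed without replicate 1 (0.72, adjusted p = 0.0409) and without replicate 2 (0.91, adjusted p = 0.0213).

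The cystine-glutamate exchanger xCT, *Slc7a11*, which supplies cysteine for glutathione, had 5 probes with fold changes from -0.34 to 0.19 and signs both ways. Its probe at 9.05, 7.92 and 9.15 on the IL-4 arrays and 9.04, 8.43 and 9.08 on the control arrays differed by 0.01 and 0.07 within replicates 1 and 3 and by -0.51 within replicate 2. None of the 5 passed. The subunits *Slc7a6* and *Slc7a7* (y+LAT2 and y+LAT1, exporters of basic amino acids) gave 0.52 for 1 probe and 0.39 and 0.46 for 2 probes, with adjusted p of 0.19 to 0.266 with the block. The lysosomal peptide carrier *Slc15a3* gave 0.01 (SE 0.21). For *Slc1a5* both probes stayed under the detection filter, and *Slc7a5* and *Slc16a1* were not analysed here.

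Among monocarboxylate carriers, 7 probes for 5 genes, *Slc16a3* had the largest difference and none passed. It encodes MCT4, the carrier through which glycolytic cells export lactate. Its probe read 5.65, 4.97 and 5.84 on the IL-4 arrays, against 4.40, 5.30 and 4.68 on the control arrays, and was detected on all IL-4 arrays and 1 control array. Replicate 2 ran the other way, with differences of 1.25, -0.33 and 1.17 within replicates. The log2 fold change was 0.70 (SE 0.29), with an adjusted p of 0.656 unpaired and 0.240 with the block. Without replicate 2 the blocked fit called it (adjusted p = 0.0015), but the probe was not detected on either control array left, so no size is given. It was not called without replicate 1 or without replicate 3. *Slc16a10*, a carrier of aromatic amino acids, gave -0.40 with IL-4 arrays all below control arrays (adjusted p = 0.244 with the block). Its probe was detected on 1 IL-4 array and all 3 control arrays, at 4.48, 4.46 and 4.72 against 4.83, 4.91 and 5.14. These signals lie near the limit of detection, and the fold change from the authors' values was -0.04.

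**Figure D3:**
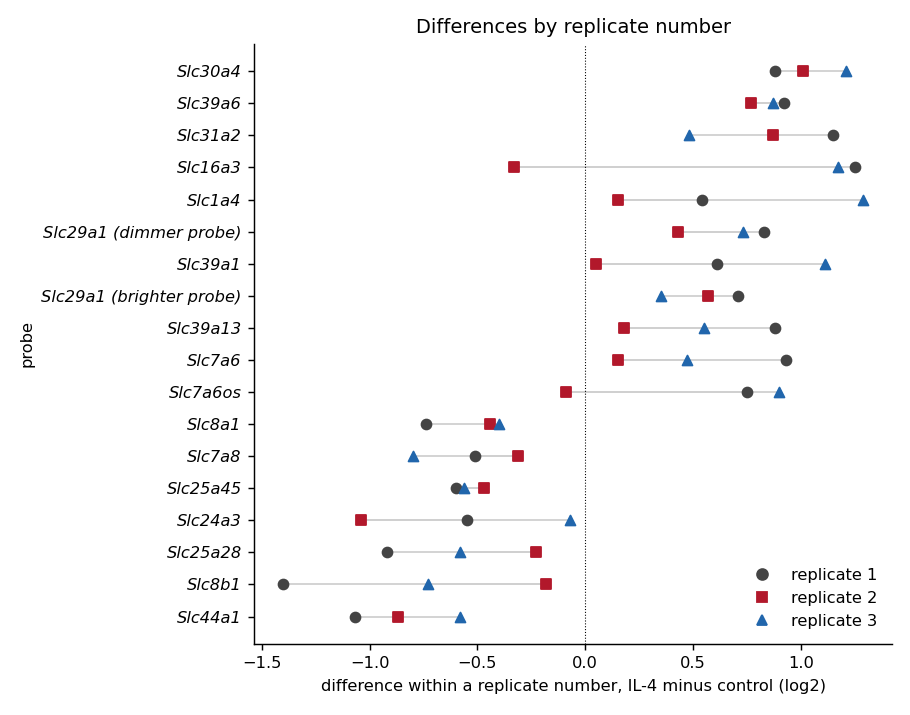
Difference between the IL-4 and the control array of the same replicate number (log2) for the 18 carrier probes with a fold change over 0.5 in size, ordered by fold change. The 4 called probes keep all 3 points well off zero, but the blocked fit chose them by these same differences. Some probes not called, such as *Slc25a45*, do so too. Replicate 2 (squares) lies within 0.18 of zero or across it for *Slc16a3*, *Slc1a4*, *Slc39a1*, *Slc39a13*, *Slc7a6*, *Slc7a6os* and *Slc8b1*.

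Carriers of nucleotide sugars and related compounds had 24 probes for 17 genes, with a median of -0.083 and no call. Of the 3 probes of *Slc35b3*, which brings the sulfate donor PAPS into the Golgi apparatus, the 2 brighter ones did not overlap between groups. The first of these read 8.50, 8.47 and 8.52 on the IL-4 arrays and 8.98, 8.84 and 8.98 on the control arrays, and the second 8.65, 8.51 and 8.52 against 9.00, 8.90 and 8.86. Their fold changes were -0.43 and -0.36, and the dim remaining probe gave -0.11. Adjusted p were 0.208, 0.316 and 0.842 with the block.

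The GDP-fucose carrier *Slc35c1* had a probe at -0.34 without overlap and a probe at -0.10 with overlap. *Slc35a4* gave 0.40, at 8.75, 8.47 and 8.48 on the IL-4 arrays and 8.22, 8.16 and 8.13 on the control arrays (adjusted p = 0.258 with the block). *Slc37a2*, a glucose-6-phosphate carrier of the endoplasmic reticulum that macrophages express, gave -0.18 (SE 0.19).

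Families of sugar carriers had 9 probes for 7 genes with fold changes from -0.18 to 0.19, the narrowest range of any class. *Slc45a4* had the smallest blocked p among them, at 7.18, 7.17 and 7.19 on the IL-4 arrays and 7.33, 7.20 and 7.54 on the control arrays. Its fold change was -0.18 (SE 0.16), and its other 2 probes gave -0.12 and -0.13. The lysosomal hexose carrier *Slc2a6* gave -0.09 (SE 0.16). Members were classed by family number, so a member such as *Slc5a6* or *Slc5a12* need not itself carry sugar.

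Carriers of lipids and bile acids and the vesicular carriers had 11 probes for 8 genes, 8 of them positive, and none passed. *Slc17a9*, which loads ATP into vesicles, had 2 probes at 0.30 and 0.33 without overlap. The dimmer one was detected on all 3 IL-4 arrays and no control array, at 4.81, 4.84 and 4.72 against 4.32, 4.59 and 4.48. This sets the IL-4 level at least 1.05-fold higher (adjusted p = 0.388 with the block). That probe passed the filter through the IL-4 arrays alone, so its lack of overlap is in part set by the filter. Of the 5 probes for genes that carry an Slc symbol but are no transporters, *Slc7a6os* had the smallest blocked p, at 0.52 (adjusted p = 0.25 with the block) and with a difference of -0.09 within replicate 2. Its second probe gave 0.15 (adjusted p = 0.753 with the block).

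Replicate 2 was looked at because it stood apart in earlier results of these data. The same counts were not made for replicates 1 and 3. Among the carriers the replicate 2 arrays lay outside the others more often low than high. Both lay below the other 4 arrays for 34 carrier probes (16.7%, against 10.9% of all probes) and above them for 15 (7.35%, against 10.6%). For 108 carrier probes (52.9%, against 56.2%) the displacement of replicate 2 was larger in size than the difference between IL-4 and control. Summed markers of some other cells differed there too. The summed log2 level of the 8 neutrophil markers tested of 10 was 82.3 to 82.4 on the replicate 2 arrays and 66.0 to 69.3 on the others. For 3 of 7 mast cell and basophil markers it was 28.1 to 28.9 against 19.6 to 23.0, and for 8 of 11 macrophage markers 65.0 to 65.1 against 70.6 to 71.8. Both replicate 2 arrays lay above the rest for 7 of the 8 neutrophil markers and 2 of the 3 mast cell and basophil markers, and below for 7 of the 8 macrophage markers. In each list 1 marker ran the other way, *Mmp8* and *Kit* being lower there and *Adgre1* higher. The replicate 2 sums of 2 eosinophil markers and of 2 T and NK cell markers lay within the range of the other arrays, 13.9 to 16.9 and 9.0 to 9.8.

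Each tested marker was detected on at least 3 arrays, as the filter required, while those not tested included *Mpo*, *Ly6g*, *Mcpt8*, *Fcer1a*, *Ms4a2*, *Tpsb2*, *Cd68* and *Ly6c2*. Summed levels in the groups overlapped, at 66.0 to 82.3 on the IL-4 arrays and 66.7 to 82.4 on the control arrays for neutrophil markers. They were 19.6 to 28.1 and 19.9 to 28.9 for mast cell and basophil markers, and 65.0 to 71.6 and 65.1 to 71.8 for macrophage markers. For 9 dendritic cell markers they were 91.4 to 93.4 and 89.6 to 91.8. The 1 erythroid marker tested of 5 read 6.5 to 6.9 on the replicate 2 arrays and 4.3 to 4.7 on the others. Their part in the carrier results was not tested. Without replicate 2 the blocked fit called 11 carrier probes higher and 6 lower (5.39% and 2.94%, against 3.18% and 2.06% of all probes). The 4 probes called with all arrays were among these. Of the other probes, *Slc1a4* was called without replicate 1 as well and none without replicate 3.

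The largest displacement was in *Slc24a3* (NCKX3, a potassium-dependent sodium-calcium exchanger). It read 5.24, 7.06 and 5.33 on the IL-4 arrays and 5.78, 8.10 and 5.40 on the control arrays, so replicate 2 was 2.14 above the mean of the others. Its fold change was -0.55 with an SE of 0.70, and it did not pass in either fit (adjusted p = 0.197 with the block). *Slc6a13* (GAT2, a carrier of GABA and taurine) was also high in replicate 2, at 7.88 and 7.57 against 6.80 to 7.28 on the other arrays. Its relative *Slc6a12* (BGT1, a carrier of betaine and GABA) was low there, at 6.71 and 6.66 against 7.34 to 8.04. Fold changes of *Slc6a13* and *Slc6a12* with IL-4 were -0.04 and 0.20, both within their SE.

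Carriers low in replicate 2 included *Slc7a8*, with a displacement of -1.03, and the *Slc7a11* probe given above, at -0.91. *Slc23a2* read 6.10 and 6.01 there against 6.51 to 6.74 elsewhere. On the high side *Slc25a12* read 7.75 and 7.64 against 7.17 to 7.45, and the fatty acid carrier *Slc27a6* read 4.93 on both arrays against 4.25 to 4.74, at the limit of detection.

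**Figure D4:**
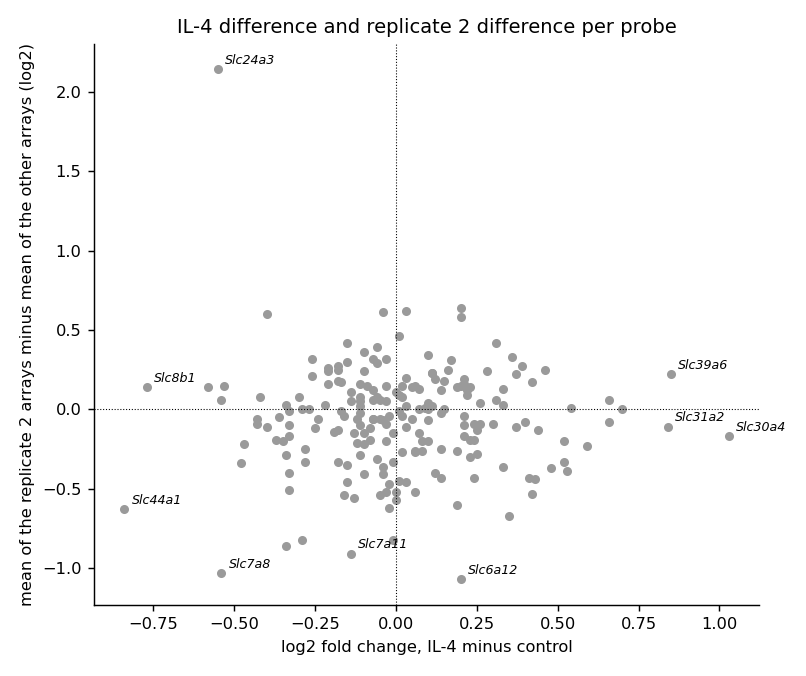
Mean of the 2 replicate 2 arrays minus mean of the other 4 arrays (vertical, log2) against the log2 fold change of IL-4 over control (horizontal) for the 204 carrier probes. *Slc24a3* lies highest at 2.14 and *Slc6a12* lowest at -1.07. The metal carriers *Slc30a4*, *Slc39a6* and *Slc31a2* lie to the right near zero on the vertical axis, and the called choline carrier *Slc44a1* lies to the left at -0.63.

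All 204 carrier probes have the authors' own normalized values, since symbols came only with that table. The direction was the same in 191 of them, and the fold change was smaller in size in 193. Of the 18 probes over 0.5 in size here, 6 had a mean level under 6, and these kept a median of 0.21 of their fold change. The brighter ones of the 18 kept a median of 0.71. *Slc30a4*, a dim probe, gave 0.27 there against 1.03 here, while *Slc39a6* gave 0.75, *Slc31a2* 0.56, *Slc44a1* -0.62 and *Slc8b1* -0.68. Only 6 carriers (2.94%, against 2.62% of all probes) were over 0.5 in size in those values. With the replicate block no carrier passed in them. With a prior variance that also follows intensity, *Slc30a4* (adjusted p = 0.0173) and *Slc39a6* (adjusted p = 0.0196) did.

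**Figure D5:**
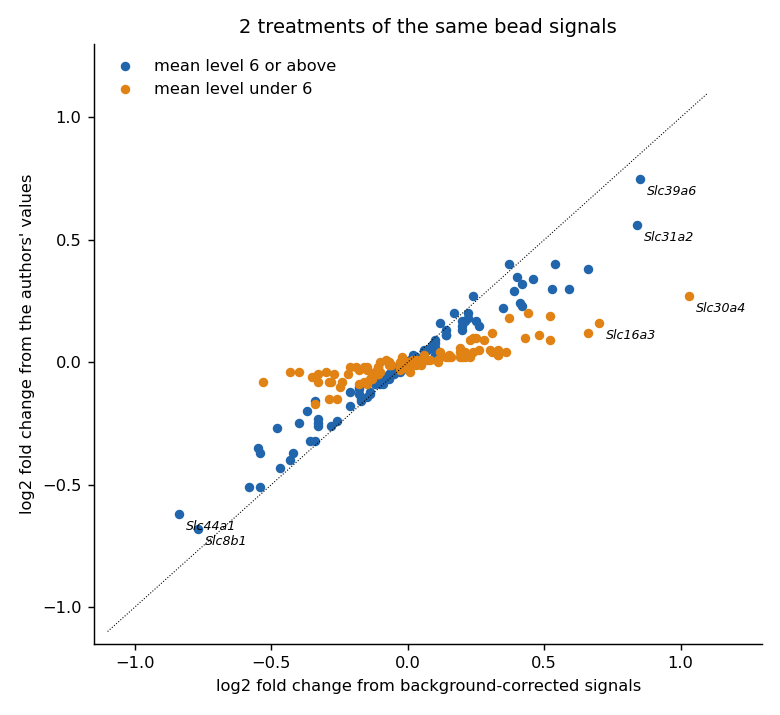
Log2 fold change (IL-4 over control) of each carrier probe from the authors' values (vertical) against that from background-corrected signals (horizontal), with the line of equality dotted. Probes with a mean level under 6 (orange) lie close to zero on the vertical axis, as *Slc30a4* does at 0.27 against 1.03, and brighter probes (blue) lie nearer the line.

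Where a gene had several probes they did not always run together. Of 40 such genes, 27 had probes all of 1 sign. The 21 probes detected on 3 arrays, just inside the filter, had mean levels of 4.60 to 4.87, and the 14 detected on 2 arrays, just outside, had 4.53 to 4.77. In all 43 carrier probes fell under the filter, and 30 genes had no probe past it, among them *Slc39a10* and *Slc39a14*, zinc importers of the ZIP family, and the folate carrier *Slc46a1*.

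In the lists of genes around the carriers, calls are from the blocked fit, which called 1.44% of all probes higher and 0.834% lower. Of 25 genes of the same families under other symbols 11 were tested, and *Slco4a1*, an organic anion carrier, rose in the blocked fit. It read 6.88, 7.45 and 6.92 on the IL-4 arrays and 5.27, 7.27 and 5.72 on the control arrays, a log2 fold change of 1.00 (adjusted p = 0.694 unpaired and 0.0434 with the block). Of 12 partners of carriers 8 were tested and none passed. Of these *Txnip*, which curbs glucose uptake, gave -0.53 (adjusted p = 0.137 with the block).

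Of 23 genes of the amino acid response, 21 were tested and 2 rose in the blocked fit. *Atf5* gave 0.92 (adjusted p = 0.366 unpaired and 0.00661 with the block) and *Atf3* 0.81 (adjusted p = 0.574 unpaired and 0.017 with the block), both of them transcription factors of that response. *Asns*, which makes asparagine, gave 0.22 and *Chac1*, which breaks down glutathione, gave 0.60, and neither passed. The lowest value was that of *Cebpb*, at -0.43 (adjusted p = 0.218 with the block), and the median of the list was 0.058. Before adjustment, at 0.05, the blocked fit had 3 of the 21 higher and 2 lower, against 6.68% and 6.69% of all probes. Of 22 genes of lysosomal nutrient sensing 18 were tested and none passed, with a median of -0.117.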

How the data were processed

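Per probe and array, the authors deposited an uncorrected, unnormalized mean bead signal intensity and the scanner software's detection p-value (45281 probes). Their second table, deposited as log2 values of 19293 probes, had been through variance stabilization and robust spline normalization in lumi before their own test in limma (versions not given in the sources used here).

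For this report, neqc (limma 3.58.1, R 4.3.3, offset 16) corrected the bead signals for background, using the detection p-values, and quantile normalized them. Probes past the filter, 16071 in number, were fitted with lmFit and eBayes, once without and once with the replicate number as a block. The authors' table held 15888 of these and paired its probes with the platform annotation, so that other probes had no symbol here. The symbols of all 204 carrier probes were current in RefSeq. With 3 arrays per group, the number of arrays limits the precision. Python 3.11.15 with matplotlib 3.10.9 drew the figures. The fits were tested on simulated data with replicate effects drawn for each probe alone. Displacements shared by many probes of an array were not covered by that test.

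The labels do not state that a replicate number stands for a mouse. Residuals around the group means correlated at 0.292, 0.549 and 0.624 between arrays sharing a number and at -0.549 to 0.0959 between the rest, and on that ground the numbers were taken to pair the arrays.

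Named genes were probes called in either fit, the 5 per direction with the smallest unpaired p among those without overlap, the smallest blocked p in each role class, the 4 per direction with replicate 2 farthest outside, and 10 carriers picked by role. Others given with values were chosen after their values were seen. Members and lists were chosen with earlier results of these data known. Alternatives were no background correction, an offset of 50, median scaling, an intensity trend, the authors' values, other detection filters and leaving out arrays.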

Additional observations from a re-analysis of the deposited data

How the results depend on the processing

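Without the replicate block, the count of carrier probes past an adjusted p of 0.05 was 0 in both directions under every alternative tried. With the block it was 3 higher and 1 lower, with an intensity trend 4 and 3, with an offset of 50 3 and 2, without background correction 1 and 2, with median scaling 0 and 0, and with the authors' values 0 and 0, or 2 and 0 once the trend was added. The blocked fits with an offset of 50, without background correction, with median scaling and with the authors' values and the trend were chosen after seeing the data. Leaving out arrays gave 0 to 11 higher and 0 to 6 lower. With the block the counts were 3 and 1 without replicate 1 or without replicate 3, and 11 and 6 without replicate 2. Median scaling shifted the median of all tested probes to 0.147 and that of the carriers to 0.137, with or without the block. Relative to that shift the carriers were at -0.01. Leaving out arrays moved the carrier median between -0.046 and 0.049. The fold changes of *Slc30a4*, *Slc39a6*, *Slc31a2* and *Slc44a1* kept their sign throughout, and their adjusted p over the blocked alternatives ran from 6.28e-05 to 0.163, 0.002 to 0.155, 0.00597 to 0.266 and 0.00799 to 1.0. Fold changes near zero did not. Under median scaling, with and without the block, *Slc23a2* gave 0.14, *Slc45a4* 0.03, *Slc6a13* 0.16 and 2 probes of *Slc7a11* 0.05 and 0.08. With arrays left out, *Slc15a3* ran from -0.16 to 0.14 (blocked -0.06 without replicate 1, -0.02 without replicate 2), *Slc23a2* from -0.26 to 0.11 (blocked 0.03 without replicate 3) and *Slc6a13* from -0.33 to 0.21 (blocked 0.13 without replicate 1). *Slc24a3* ran from -1.14 to 0.29, *Slc25a12* from -0.02 to 0.21, *Slc27a6* from -0.20 to 0.14 (blocked 0.01 without replicate 3) and *Slc6a12* from -0.12 to 0.59. Of the *Slc7a11* probes 1 ran from -0.12 to 0.54 (blocked -0.07 without replicate 1), 1 from -0.02 to 0.22 (blocked -0.02 without replicate 1) and 1 from -0.36 to 0.25 (blocked 0.04 without replicate 2). The cause of these shifts was not tested. Dim probes near the detection limit, such as those of *Slc27a6* and *Slc17a9*, have signals close to background, which limits what their fold changes can show.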
